A study of Mus musculus with 14 samples.

Results

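MicroRNA levels were compared between graft-infiltrating lymphocytes (GIL) of syngeneic mouse heart transplants and blood mononuclear cells (PBMC) of mice without a graft. A microRNA assay entered the comparison when its threshold cycle (Ct, the PCR cycle at which its signal appears) was under 35 on every plate of at least 1 side. Of the 375 microRNA assays on the card, 229 met this rule: 162 were detected on all 4 plates, 32 on the 3 syngeneic plates and not in PBMC, and 35 in PBMC but not on every syngeneic plate. The other 146 assays were detected on neither side throughout, 20 of them on 1 or 2 syngeneic plates. At the limit, the last assay inside was miR-302a, with a PBMC Ct of 34.95, and the first outside was miR-208, whose highest syngeneic Ct was 35.02.

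The study measured 14 TaqMan rodent microRNA cards, 7 of whole hearts and 7 of infiltrating or blood cells. Syngeneic GIL were recovered on day 5 after heterotopic transplantation of a C57BL/6 heart into a C57BL/6 recipient, a graft that the labels record as not rejected. The blood cells, called PBMC in some labels and PBLs in others, came from normal C57BL/6 mice without surgery. Mice were 8 to 10 weeks old. Each plate held RNA pooled from 3 animals, 100 ng of each, so n counts pools: 3 for syngeneic GIL and 1 for PBMC. How GIL were separated from graft tissue is not given in the sources used here. The single PBMC pool has no replicate, and the test assumes that it varies like the other groups. The p-values therefore measure the spread between GIL pools. The 3 syngeneic plates were run together on 1 day and the PBMC plate on another, so run day and group cannot be told apart.

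MicroRNAs are short RNAs that bind messenger RNAs mainly through the seed, the bases near their 5′ end, and lower the output of those messengers. Several are made almost only in particular cell types, such as the miR-142 arms in blood cells, miR-1 and the miR-133 family in muscle, miR-126 in endothelium, and the miR-199a and miR-214 transcript in fibroblasts and other mesenchymal cells. A leukocyte preparation from a tissue can thus be read against the blood for both its leukocyte and its tissue microRNAs.

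Mature sequences from the RefSeq annotation of GRCm38.p6 matched 149 of the 229 assays. Assay names that give no arm, such as miR-127, miR-411, miR-379, miR-214, miR-204, miR-211 and miR-425, were matched to the arm usually taken as the main product, since the card's own annotation was not used here, so their sequences and seeds rest on that choice. The first set below shows examples of microRNAs that were higher in syngeneic GIL, chosen from clusters on chromosomes 12 and 1 and from endothelial and muscle genes. Capitals mark the seed, bases 2 to 8.
miR-127: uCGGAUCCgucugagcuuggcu
miR-411: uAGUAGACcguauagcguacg
miR-379: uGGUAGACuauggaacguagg
miR-495: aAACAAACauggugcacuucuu
miR-214: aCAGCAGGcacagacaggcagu
miR-199a-3p: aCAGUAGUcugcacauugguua
miR-199a-5p: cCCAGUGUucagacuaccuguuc
miR-126-3p: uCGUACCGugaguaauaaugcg
miR-133b: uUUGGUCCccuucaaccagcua

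The seeds in this set all differ from each other. The second set shows members that were lower in syngeneic GIL. Its first 6 share the seed AAAGUGC, although they come from 3 clusters on chromosomes 14, X and 5.
miR-17: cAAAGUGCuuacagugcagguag
miR-20a: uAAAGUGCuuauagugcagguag
miR-20b: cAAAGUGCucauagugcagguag
miR-106a: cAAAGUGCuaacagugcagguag
miR-106b: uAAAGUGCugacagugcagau
miR-93: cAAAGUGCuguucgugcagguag
miR-130a: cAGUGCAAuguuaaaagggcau
miR-130b: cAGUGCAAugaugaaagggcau
miR-301a: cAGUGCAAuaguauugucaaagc
miR-142-3p: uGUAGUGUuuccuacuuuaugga
miR-181a: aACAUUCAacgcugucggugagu

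The third set holds pairs that share a seed and differed in their calls: miR-204 and miR-211, miR-221 and miR-222, and miR-497 and miR-195.
miR-204: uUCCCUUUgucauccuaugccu
miR-211: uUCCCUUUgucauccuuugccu
miR-221: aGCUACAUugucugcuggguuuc
miR-222: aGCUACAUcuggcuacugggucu
miR-497: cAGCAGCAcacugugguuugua
miR-195: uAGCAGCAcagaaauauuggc

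The syngeneic plates detected 221, 204 and 215 assays and the PBMC plate 197. Levels below are log2 values relative to the mean Ct of 137 reference assays, those detected on all 7 GIL and PBMC plates, and a difference is syngeneic GIL minus PBMC with its standard error. The mean reference Ct was 24.7, 25.8 and 25.0 on the syngeneic plates and 23.2 in PBMC. Over the 162 assays detected on all 4 plates, levels correlated at 0.982 to 0.987 between syngeneic plates and at 0.597 to 0.652 between a syngeneic plate and PBMC (Pearson, across assays, as a description). The median SD over the syngeneic pools was 0.27. Of the small RNA controls, MammU6 differed by 1.09, U87 by 0.32, snoRNA135 by -0.20, snoRNA202 by -0.47 and Y1 by -1.85. A scaling to any of them subtracts its value from every difference. The plant control was undetermined on all 4 plates.

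Among the 162 assays on all 4 plates, 34 were higher (21.0%) and 62 lower (38.3%) in syngeneic GIL at a limma adjusted p under 0.05, and 66 were not called. The differences were uneven in size: 24 of the 34 higher calls reached 3 log2 units, against 12 of the 62 lower calls. The higher calls had a median of 4.75 and a range of 1.41 to 12.87, and the lower calls a median of -2.31 and a range of -5.49 to -1.11. Over all 229 tested, 66 were called higher (28.8%) and 73 lower (31.9%), and 155 had an unadjusted p under 0.05. In each of the 96 calls on 4 plates, all 3 syngeneic pools lay on the same side of PBMC. The same held for 148 of all 162 assays, so it adds little to the calls. The split depended on the scale: scaled to MammU6 it was 53 higher and 92 lower, scaled to snoRNA202 it was 63 and 31, scaled to snoRNA135 and snoRNA202 it was 63 and 35, and with the deposited delta Ct it was 58 and 35. Calls that held under all 6 scalings tried numbered 19 higher and 18 lower on the 4 plates.

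**Figure D1:**
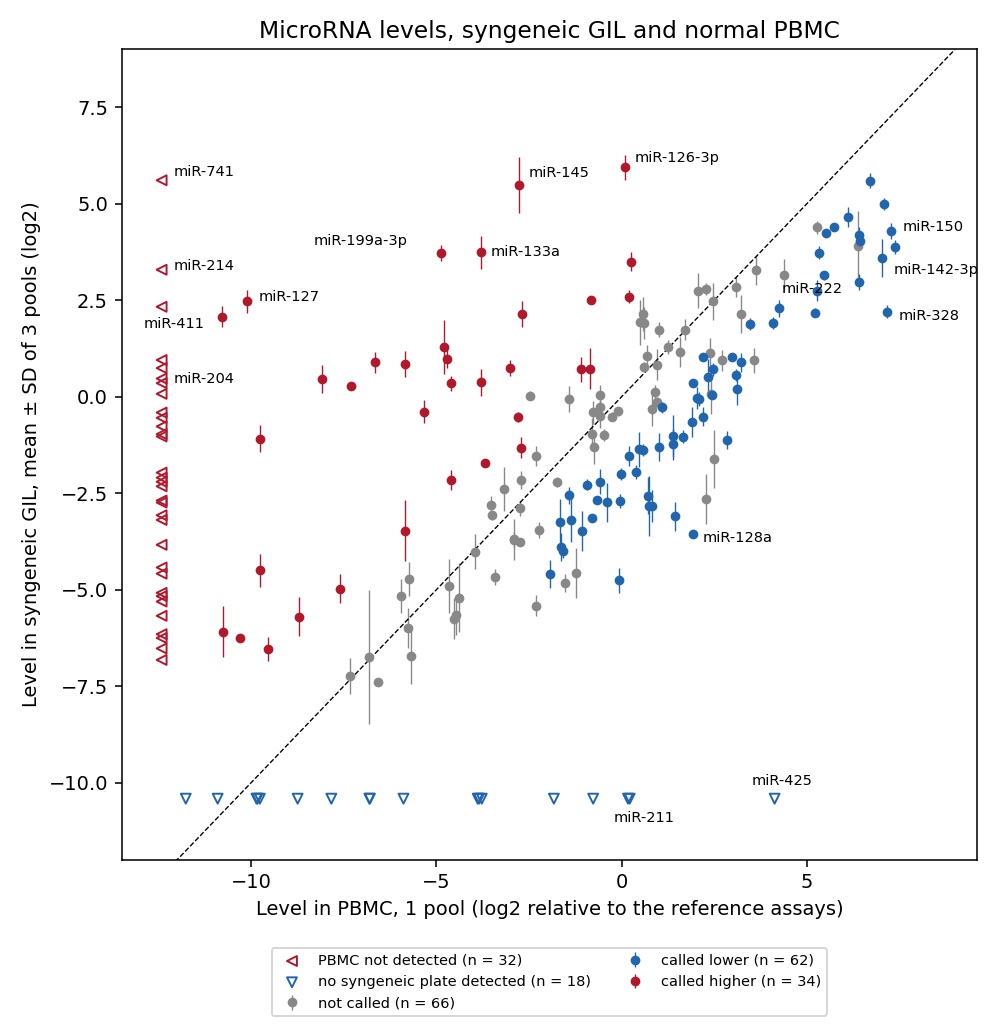
Level of each microRNA in PBMC (horizontal axis, 1 pool, log2) against syngeneic GIL (vertical axis, mean ± SD of 3 pools, log2), with equal levels on the dashed line. Red points are the 34 assays called higher and blue points the 62 called lower; open triangles are undetected on 1 side and sit at that side's limit, and 8 of the 18 blue triangles were called. The red points lie 1.41 to 12.87 above the line, and miR-142-3p and miR-150 lie below it at the high end of PBMC.

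Muscle microRNAs were present in syngeneic GIL at levels that PBMC did not approach. miR-133a had a Ct of 21.20, 22.31 and 20.81 in the syngeneic pools and of 26.99 in PBMC. Scaled, every syngeneic pool was far above PBMC, by 7.55 ± 0.59 (limma adjusted p = 2.25e-04). miR-1 gave the same picture, with Ct values of 24.45, 25.52 and 24.73 against 30.48 and a difference of 7.58 ± 0.89. The rat assay for miR-1 on the same card differed by 7.55 ± 0.92. miR-133b was detected in the syngeneic pools at 24.22, 25.16 and 23.93 and not in PBMC, a difference of at least 12.56. These 3 mouse assays were called higher under all 6 scalings. In bulk RNA, a larger share of cells of a type and more RNA per cell cannot be told apart.

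The cardiac muscle list was not uniformly present, because 4 of its 7 assays on the card failed the rule. miR-208b and miR-490 were detected on none of the 4 plates. miR-208, made from a myosin gene of the heart, was under the limit on 2 syngeneic plates, at 33.03 and 30.79, and miR-499, from another myosin gene, on 1 syngeneic plate, at 31.94. Neither was detected in PBMC. The summed level of the list was 3.78 to 4.47 in syngeneic GIL and -3.66 in PBMC.

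Mesenchymal, smooth muscle and endothelial microRNAs were higher too. miR-214 had Ct values of 21.67, 21.92 and 22.08 in the syngeneic pools and was undetermined in PBMC, a difference of at least 15.11. Its neighbours on chromosome 1 (chr1:162217844-162223459), miR-199a-3p and miR-199a-5p, differed by 8.59 ± 0.53 and by at least 9.62 (miR-199a also has a copy on chromosome 9). The 3 syngeneic pools were close together for each of these assays. For miR-199a-3p no pool overlapped PBMC, as in 148 of the 162 assays on all 4 plates. The other 2 were undetected in PBMC.

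The miR-143 and miR-145 transcript marks smooth muscle. miR-145 stood at 20.06, 19.69 and 19.34 in syngeneic GIL and at 25.95 in PBMC, a difference of 8.26 ± 0.63, and miR-143 differed by 6.10 ± 0.69. miR-126-3p, the main endothelial microRNA, had Ct values of 19.04, 19.97 and 18.71 against 23.09 and a difference of 5.86 ± 0.47. The other arm of the same hairpin, miR-126-5p, differed by 4.83 ± 0.46. In contrast miR-10a, placed on the endothelial list, differed by -0.15 ± 0.43 and was not called.

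All 10 called members of the cardiac, mesenchymal, smooth muscle and endothelial lists kept their calls under all 6 scalings, though miR-133b, miR-214 and miR-199a-5p, not detected in PBMC, had to be higher. The summed levels were 4.43 to 4.71 in syngeneic GIL and -4.84 in PBMC for the mesenchymal list, 4.75 to 6.17 and -2.45 for smooth muscle, and 5.81 to 6.43 and 0.84 for the endothelial list. Their part in the differences of other microRNAs was not tested.

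The miR-142 arms and the microRNAs of resting lymphocytes went the other way. miR-142-3p, made across blood cell lineages, had Ct values of 20.60, 22.62 and 21.54 in the syngeneic pools and of 16.14 in PBMC. All 3 pools were lower than PBMC, with a difference of -3.45 ± 0.49 (limma adjusted p = 0.00233), and miR-142-5p of the same hairpin differed by -2.65 ± 0.57. Of this pair 1 was called when scaled to snoRNA202, to both snoRNAs or by quantiles, with no change of direction. The summed level of both arms was 3.18 to 4.15 in syngeneic GIL and 7.05 in PBMC.

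Of the 10 microRNAs that are high in resting lymphocytes, 9 were called lower and none higher. On all 4 plates this was 8 of 9, where 38.3% of the 162 such assays were called lower. miR-150, a microRNA of mature B and T cells, stood at 20.58, 21.57 and 20.51 in syngeneic GIL and at 15.91 in PBMC, a difference of -2.97 ± 0.50 (limma adjusted p = 0.00365). miR-181a differed by -2.71 ± 0.35, miR-181c by -2.66 ± 0.53, and the 3 miR-29 members, which restrain collagen and other matrix genes, by -1.95 to -2.41. miR-26a and miR-26b differed by -2.30 ± 0.38 and -1.94 ± 0.31.

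The remaining members of that list were the 2 arms of miR-342. miR-342-3p differed by -1.09 ± 0.47 and was not called, while miR-342-5p was detected in PBMC at 25.01 and in none of the 3 syngeneic pools. The latter passed the rule only through PBMC, the side on which it is high. The 9 list members on all 4 plates had a median of -2.35, against -1.03 over the 162 such assays. The whole list's count of lower calls was 10 scaled to MammU6, 3 scaled to snoRNA202, 4 scaled to both snoRNAs and 2 with the deposited delta Ct. No called member changed direction under a scaling.

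MicroRNAs induced on activation went both ways. Of 8 tested, 3 were called higher and 1 lower. Over all 229 tested, 28.8% were called higher and 31.9% lower, so these counts say little about the group. miR-132 had Ct values of 22.22, 23.34 and 22.46 in syngeneic GIL, levels that lay 3.34, 3.26 and 3.39 above PBMC, and a difference of 3.33 ± 0.48. miR-183 was detected in the 3 syngeneic pools at 29.21, 30.21 and 29.40 and not in PBMC, a difference of at least 7.39, though the instrument software had marked 2 of these wells. Its cluster partner miR-182 had Ct values of 29.75, 31.10 and 29.62 against 30.79, a difference of 2.63 ± 0.61 (limma adjusted p = 0.0123) that turned to -0.19 and was not called under quantile normalization.

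miR-155, the classic microRNA of activated lymphocytes and macrophages, had Ct values of 24.82, 25.93 and 24.68 against 23.76. Its difference of 0.62 ± 0.38 was not called (limma adjusted p = 0.21). miR-146a, a feedback inhibitor of inflammatory signalling, differed by -0.24 ± 0.35 and miR-146b by 1.43 ± 0.51, also without a call. miR-21 was called lower at -1.34 ± 0.34 and stood at 0.41, not called, under quantile normalization.

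Among myeloid microRNAs, miR-223, which is abundant in granulocytes and monocytes, spread most over the syngeneic pools. Its Ct was 19.79, 22.43 and 21.62 against 16.79 in PBMC. All 3 pools were lower than PBMC, but the difference of -2.49 ± 0.95 missed the threshold (limma adjusted p = 0.0655). miR-147, induced in stimulated macrophages, was detected in the syngeneic pools at 28.03, 29.77 and 29.26 and not in PBMC, a difference of at least 7.98. Of the arms of miR-125a, miR-125a-3p was called higher at 2.37 ± 0.69 and miR-125a-5p was not called at 0.18 ± 0.44. Scaled to MammU6, miR-125a-3p lost its call and miR-223 was called lower.

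Red cell RNA was represented by miR-451, with Ct values of 27.57, 27.97 and 28.22 in syngeneic GIL and 23.57 in PBMC. It was lower, with a difference of -2.35 ± 0.49, and lost its call when scaled to snoRNA202 or to both snoRNAs. miR-486 was detected on none of the 4 plates.

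**Figure D2:**
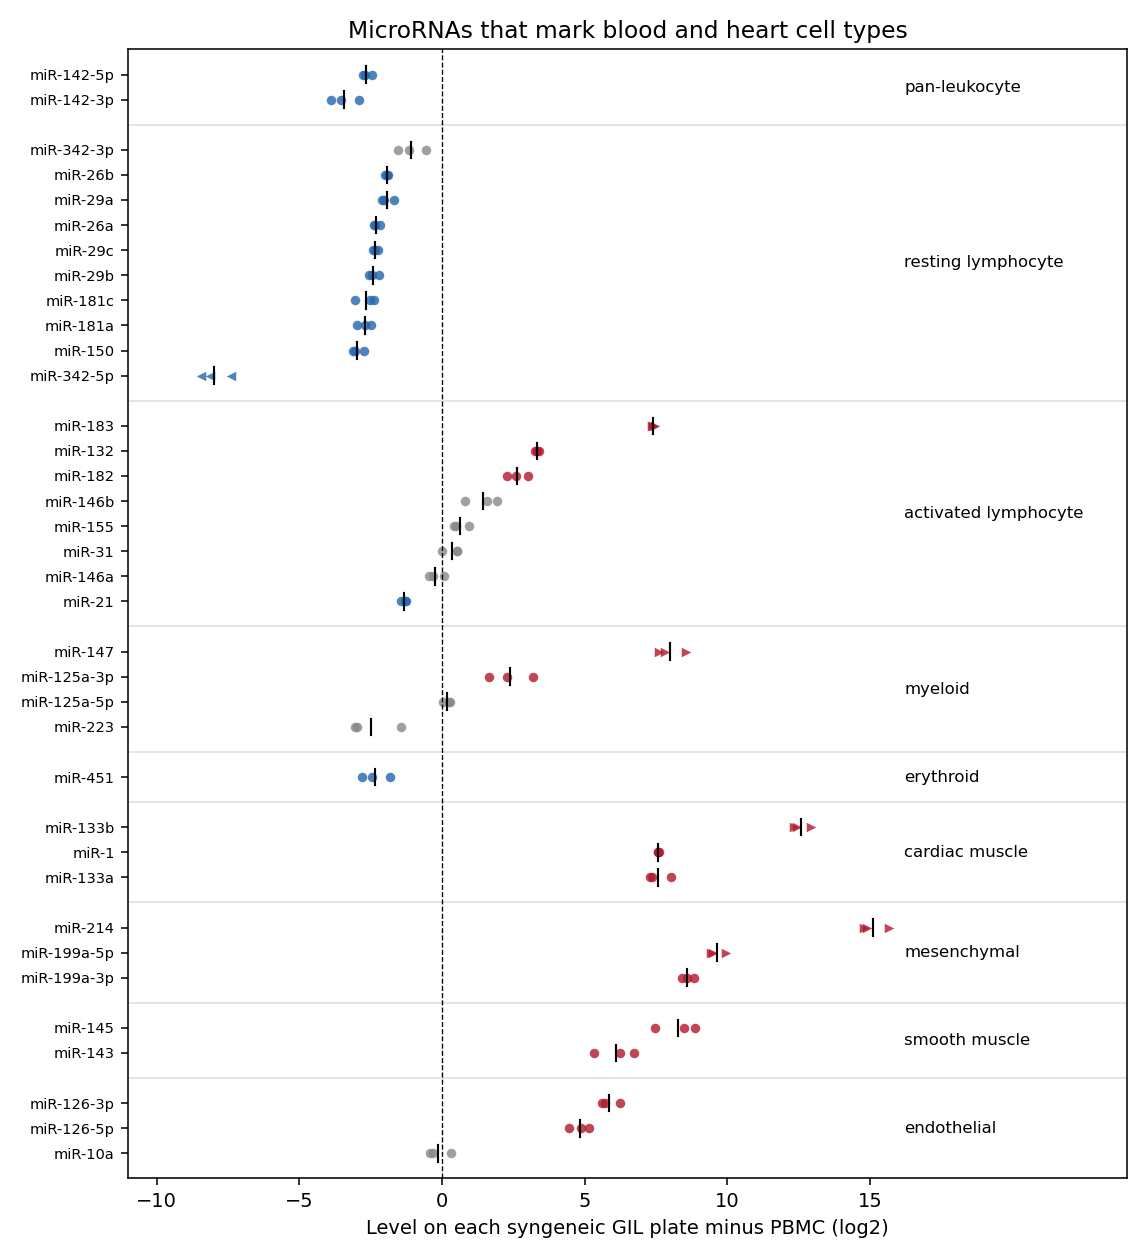
Level on each of the 3 syngeneic GIL plates minus PBMC (horizontal axis, log2) for the tested members of 9 marker lists, with red for called higher, blue for called lower, grey for not called and a tick at the mean. Triangles are bounds against an undetected side. The 2 miR-142 arms and the resting lymphocyte list lie left of 0, the cardiac, mesenchymal and smooth muscle lists lie right of 0, and the activated list straddles it.

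Differences within a plate do not depend on the scaling. The Ct of miR-142-3p minus that of miR-133a was -0.60, 0.31 and 0.74 cycles in the syngeneic pools and -10.85 in PBMC. In whole syngeneic hearts of day 7 this gap was 4.93, 5.34 and 6.26, and in a normal BALB/c heart pool it was 9.29. Syngeneic GIL lay between blood and whole heart for this pair.

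For miR-142-3p minus miR-199a-3p the gap was -0.43, 0.36 and 0.46 in syngeneic GIL, -11.91 in PBMC and -2.02 to -0.96 in syngeneic hearts, so here the GIL pools lay beyond the hearts, on the side away from blood. For miR-142-3p minus miR-126-3p it was 1.56, 2.65 and 2.83 in syngeneic GIL, -6.96 in PBMC and 2.97 to 4.05 in syngeneic hearts. For miR-150 minus miR-145 it was 0.52, 1.89 and 1.17 in syngeneic GIL, -10.03 in PBMC and 0.71 to 0.97 in syngeneic hearts. The last pair did not separate GIL from whole hearts, since the syngeneic pools spanned the heart values. These pairs were chosen after their values were seen, and the efficiencies of different assays differ, so only the same gap is compared between plates. In PBMC the Ct of miR-133a, miR-199a-3p, miR-126-3p, miR-145 and miR-150 each lies within 0.1 of a whole cycle. For miR-150 minus miR-145 this holds for both wells.

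**Figure D3:**
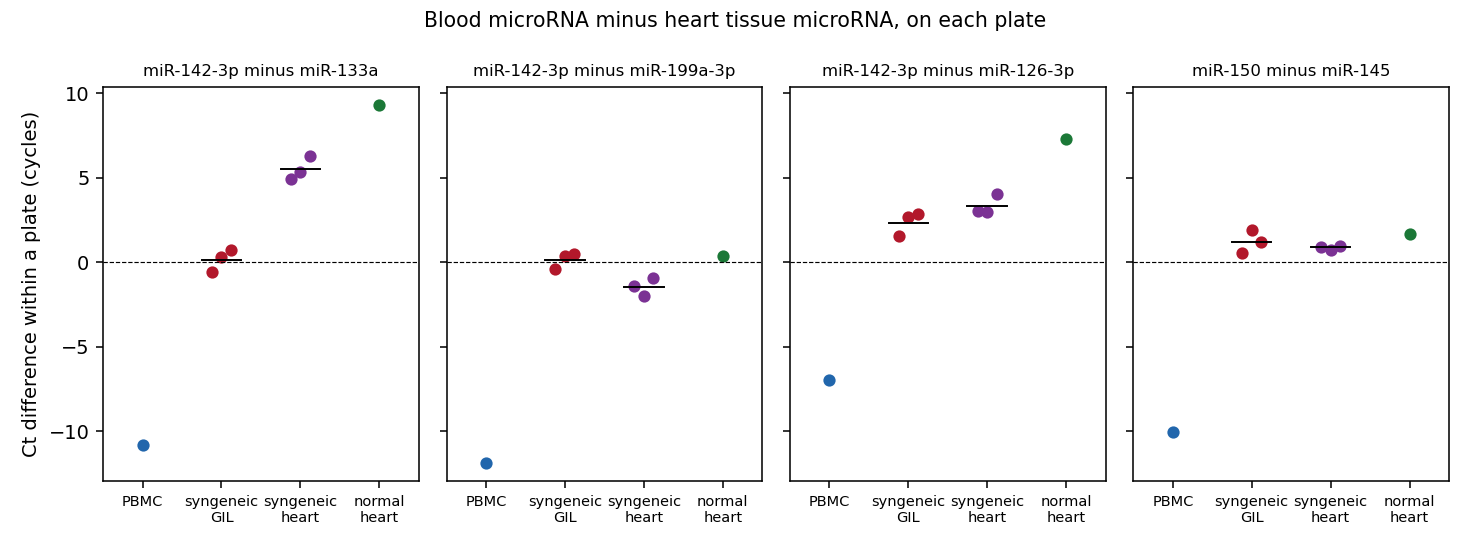
Ct of a blood cell microRNA minus Ct of a heart tissue microRNA on each plate (vertical axis, cycles), for 1 PBMC pool, 3 syngeneic GIL pools, 3 syngeneic heart pools and 1 normal heart pool, with a line at the mean of 3. A low value means more of the blood cell microRNA; PBMC stands at -10.85 for miR-142-3p minus miR-133a, and the syngeneic GIL pools at -0.60 to 0.74.

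The largest group of higher calls came from the imprinted Dlk1-Dio3 region of chromosome 12, whose microRNAs are made from the maternal chromosome and are low in most adult blood cells. The card held 42 assays of this region, of which 26 were tested: 24 were called higher and none lower. Of these 26, 18 were detected on the syngeneic plates and not in PBMC and had to differ, so neither that count nor the median over the 26 (9.10) is a result about the region. Of the 7 detected on all 4 plates, 6 were called higher, with a median over the 7 of 4.95 against -1.03 over the 162.

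miR-127 had Ct values of 22.51, 22.97 and 22.64 in syngeneic GIL and of 33.29 in PBMC, a difference of 12.59 ± 0.63. miR-411 had 22.96, 23.61 and 22.76 against 33.97, a difference of 12.87 ± 0.55, the largest among the assays on all 4 plates. miR-379 was detected at 22.66, 23.23 and 22.65 in the syngeneic pools and not in PBMC, a difference of at least 14.15. In each case the 3 pools lay within about a cycle of each other and far from PBMC.

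The tested members with a matched sequence fell into 2 runs on the chromosome. In chr12:109585818-109595352, which holds miR-337, miR-127, miR-434 and miR-136, 6 of 6 assays were higher, by 12.59 for miR-127 and 8.67 for miR-337-5p. The other 4 were not detected in PBMC and had to be higher, by at least 7.23 to at least 12.29. In chr12:109709065-109743784, from miR-379 to miR-410, 13 of 13 were higher, of which miR-411 was on all 4 plates and the other 12 had to be higher, by at least 5.30 to at least 14.15. Members of the same list that were not called were miR-376b, at 0.55 ± 1.38, and miR-667, detected on 2 syngeneic plates and marked in 3 wells. The count of higher calls was 18 under quantile normalization and 22 to 24 under the other 5 scalings, and 2 of its called members, miR-381 and miR-544, changed direction under quantile normalization. The rat assay for miR-381 differed by 0.80 ± 1.95, against 3.01 ± 0.67 for the mouse assay.

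Of the 32 assays detected in syngeneic GIL and not in PBMC, all were called higher, with a median bound of 9.56. They entered through the side on which they are high, so this count supports nothing by itself. In PBMC 26 of these wells were undetermined and 6 gave a Ct of 35.01 to 36.05. On the whole heart plates, 30 of the 32 assays (93.8%) were under the limit on all 3 syngeneic heart plates. The count was 232 of the 375 assays on the card (61.9%) and 162 of 162 of the assays on all 4 plates. Like the 32, those 162 were detected on all 3 syngeneic GIL plates, and the card as a whole was not, so the card's share is no like comparison.

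The exceptions were miR-199a-5p, detected on 1 syngeneic heart plate, and miR-124, a neuronal microRNA detected on none. miR-124 had Ct values of 28.25, 28.28 and 28.23 in syngeneic GIL. miR-741 had the largest bound, 17.43 ± 2.65, with Ct values of 17.95, 20.91 and 19.85, but the software had marked all 3 wells. Other members of this class outside the marker lists included miR-204, at least 12.17 higher, miR-455, at least 10.85, and miR-34c, at least 9.50. The related assay miR-34b-3p was detected on all 4 plates and differed by 6.71 ± 0.40.

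Further assays on all 4 plates were called higher. miR-218, from introns of the Slit genes, had Ct values of 23.98, 24.56 and 24.06 against 27.90, a difference of 5.70 ± 0.41. The rat assay for miR-224 differed by 8.54 ± 0.61 and the mouse assay by 4.94 ± 1.17. miR-125b-5p, common in fibroblasts and muscle, differed by 3.25 ± 0.44, with Ct values of 21.47, 22.02 and 21.57 against 22.94. Its relatives miR-99a and miR-100 differed by 1.29 ± 0.51 and 1.57 ± 0.55 and were not called.

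On the lower side, the miR-17-92 cluster and its paralogues, which are high in dividing lymphocytes, moved together. Of 12 tested, 11 were called lower and none higher, and all 11 were detected on all 4 plates, with a median of -2.40 against -1.03 over the 162. Of those 162, 38.3% were called lower. miR-17 had Ct values of 20.50, 21.98 and 20.96 against 16.74, a difference of -2.40 ± 0.38. miR-18a fell furthest, with 26.76, 28.71 and 27.76 against 22.47 and a difference of -3.27 ± 0.48 (limma adjusted p = 0.00253), and miR-92a differed by -3.03 ± 0.40.

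In chr14:115043684-115044496, which holds miR-17 to miR-92a, 6 of 6 assays were lower, with differences of -2.08 to -3.27. Of these, miR-19b and miR-92a also have copies on chromosome X. The 3 assays of chr5:138165332-138165807, miR-106b, miR-93 and miR-25, were lower as well. The 6 microRNAs with the seed AAAGUGC differed by -1.83 to -2.92. No called member changed direction under a scaling, and the count of lower calls was 6 scaled to snoRNA202, 7 scaled to both snoRNAs, 8 by quantiles and 11 under the other 3.

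The miR-130 and miR-301 family was lower in 4 of 4 assays, against 38.3% of the assays on all 4 plates. The 3 with a matched sequence share the seed AGUGCAA. miR-130b stood at 27.41, 28.99 and 28.43 in syngeneic GIL against 21.75 in PBMC, a difference of -4.53 ± 0.45. miR-130a differed by -3.98 ± 0.46, miR-301b by -2.70 ± 0.45 and miR-301a by -2.40 ± 0.42. At least 3 of the 4 were called under each of the 6 scalings.

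The largest fall on all 4 plates was that of miR-128a, which is also abundant in brain. Its Ct was 28.38, 29.32 and 28.55 in syngeneic GIL and 21.26 in PBMC, a difference of -5.49 ± 0.37 (limma adjusted p = 1.38e-04). miR-328 was next, with 22.69, 23.39 and 22.87 against 16.03 and a difference of -4.96 ± 0.35. Beside the miR-130 assays and miR-142-3p there followed miR-467a at -4.68 ± 0.48, miR-467c at -3.66 ± 0.65, miR-185 at -3.58 ± 0.62, miR-191 at -3.50 ± 0.34 and miR-222 at -3.43 ± 0.32. These 7 were called under all 6 scalings and miR-142-3p under 5. No syngeneic pool overlapped PBMC, as in 148 of the 162 assays on all 4 plates.

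miR-467a and miR-467c belong to a cluster in an intron of Sfmbt2. Of 6 tested assays of that cluster, 4 were called lower. On all 4 plates this was 2 of 3, against 38.3% of such assays. The other 2 lower calls, miR-467d and miR-669a, passed the rule only through PBMC, the side on which they are high. They therefore add nothing about the cluster. Not called were miR-467b at -4.91 ± 2.22 and miR-467e at -5.49 ± 2.58. The let-7 family, which is high in differentiated cells, gave 4 lower calls among 9 tested. On all 4 plates this was 3 of 8, against 38.3% of such assays, and miR-98 passed the rule only through PBMC. The family's count of lower calls was 1 when scaled to snoRNA202, to both snoRNAs or with the deposited delta Ct. It was 6 with only the 4 plates compared in the fit, and 6 without allogeneic pool 3. Among its members let-7i differed by -2.19 ± 0.31 and let-7g by -2.14 ± 0.33, while let-7b at 0.01 and let-7c at 0.70 were not called. Also not called were let-7a at -2.63 ± 3.21 and let-7f at -1.76 ± 3.33, each detected on 2 allogeneic plates. The miR-30 family gave 4 lower calls among 5, at -1.16 to -1.57, where 38.3% of the assays on all 4 plates were called lower. Of these miR-30b stood at 0.28 and uncalled under quantile normalization. None of the family was called when scaled to snoRNA202 or to both snoRNAs. The hypoxia microRNA miR-210 differed by -0.36 ± 0.50 and was not called.

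The mouse assays of the Clcn5 intron cluster and of the X-linked miR-322 cluster gave no call among 5 tested each. Their medians were -0.05 and -1.10. In the Clcn5 cluster miR-362-3p differed by 0.79 ± 0.43, miR-188-5p by 0.43 ± 0.85 and miR-532-3p by -0.25 ± 0.35. In the X-linked cluster miR-503 differed by -3.29 ± 1.42, miR-322 by -1.10 ± 0.57 and miR-450a-5p by -0.15 ± 0.34, and 2 members were called lower under quantile normalization. With only the 4 plates compared in the fit, 2 members were called lower, and without allogeneic pool 3 it was 1. The syngeneic pools stood at -3.03, -3.47 and -3.38 from PBMC for miR-503, which 0 allogeneic plates detected. The absence of a call thus depended on the allogeneic plates in the fit. The rat assay for miR-351 of the same cluster, which the list of mouse names did not count, was called higher at 1.96 ± 0.32.

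Among microRNAs of epithelia, the miR-200 family with miR-203, 3 of 5 tested were lower and none higher. On all 4 plates this was 2 of 2, where 38.3% of such assays were called lower. The 3 were miR-203 by -1.62 ± 0.43, miR-200c by -1.82 ± 0.59 and miR-200a. No syngeneic plate detected miR-200a, which passed the rule only through PBMC. Scaled to snoRNA202, to both snoRNAs or with the deposited delta Ct, 1 of the 3 was called, and miR-200c kept its call under 1 of the 6 scalings. miR-200b was detected on 2 of 3 syngeneic plates. In the list of liver, brain and pancreas microRNAs, miR-192 and miR-194 were lower, at -1.99 ± 0.35 and -2.39 ± 0.50, beside miR-128a, and miR-124 was higher. Of these 3 lower calls 1 remained when scaled to snoRNA202 or to both snoRNAs.

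**Figure D4:**
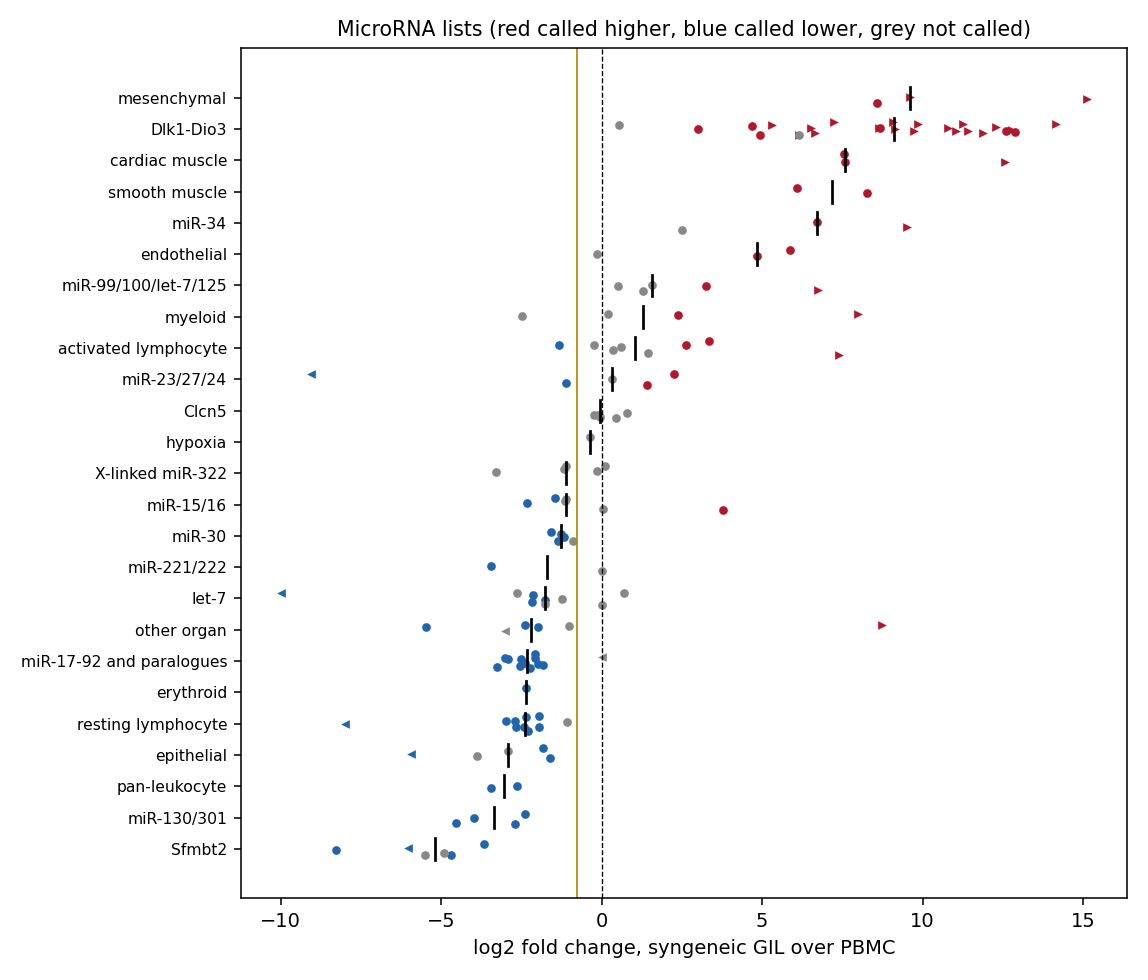
Difference of each tested microRNA (horizontal axis, log2, syngeneic GIL over PBMC) in the 25 lists, ordered by their median, which is the black tick. Triangles are bounds, the gold line is the median over all 229 tested (-0.77) and the dashed line is 0. The mesenchymal and Dlk1-Dio3 lists stand at the top with medians of 9.62 and 9.10, and the Sfmbt2 list at the bottom with -5.20. In these lists 2 of 3, 18 of 26 and 3 of 6 members passed the rule through 1 side only. The order is thus partly set by the rule. On all 4 plates the values were 8.59 (1 assay), 4.95 and -4.68.

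A shared seed or transcript did not always go with a shared call. miR-204 and miR-211 differ by a single substitution, A17U, counted from the 5′ end of miR-204, and share the seed UCCCUUU. miR-204 was detected in the syngeneic pools at 24.65, 25.50 and 24.33 and not in PBMC. miR-211 was detected in PBMC at 22.96 and in none of the 3 syngeneic pools, a bound in the other direction of -10.04 ± 0.64. Each passed the rule only through the side on which it is high, so the opposite directions were set by that rule and are a description. The PBMC Ct of miR-211 also lies within 0.1 of a whole cycle.

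miR-221 and miR-222 lie next to each other at chrX:19146307-19146923 and share the seed GCUACAU. miR-221 differed by 0.02 ± 0.48, and miR-222 had Ct values of 21.63, 23.04 and 21.94 against 16.77. The Ct of miR-222 minus that of miR-221 was -1.46, -0.68 and -1.57 in the syngeneic pools, -4.69 in PBMC and -2.17 to -3.41 in syngeneic hearts. PBMC thus lay outside the range of both other groups.

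miR-497 and miR-195, which share a seed and lie at chr11:70234730-70235082, differed by 3.77 ± 0.44 and 0.03 ± 0.33. The Ct of miR-195 minus that of miR-497 was -0.52, -0.44 and -0.62 in the syngeneic pools and -4.26 in PBMC. Within the miR-15/16 seed family as a whole, miR-497 was higher, miR-15b and miR-16 were lower, and miR-15a, miR-195 and miR-322 were not called. miR-16 stood at 0.40, not called, under quantile normalization. Of the neighbours miR-27b and miR-24, miR-27b was higher at 2.27 ± 0.34 and miR-24 lower at -1.11 ± 0.37. Under quantile normalization miR-24 stood at 0.52, not called. miR-24 also has a copy on chromosome 8 beside miR-23a and miR-27a, and the values do not separate the copies.

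The 35 assays detected in PBMC and not on every syngeneic plate were the least firm class. Of these, 11 were called lower and none higher. The limit lay 11.8 log2 units below the reference mean in PBMC and 9.22 to 10.3 below it on the syngeneic plates, so a weak PBMC signal can fall under the syngeneic limit, and some differences in this class are above 0. Among the 18 detected on no syngeneic plate, 8 were called, led by miR-425 with a PBMC Ct of 19.05 and a difference of -13.95 ± 4.03. miR-98 of the let-7 family had a PBMC Ct of 23.01 and a difference of -9.99 ± 1.46, and miR-23a had 23.95 and -9.05 ± 1.46.

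The PBMC wells of these 18 assays also stood apart in their Ct values. In 18 of 18 the Ct lay within 0.1 cycles of a whole number, where evenly spread values would give 20%. The share was 48 of 162 (29.6%) among PBMC wells of assays on all 4 plates and 3 of 17 (17.6%) among PBMC wells of assays on 1 or 2 syngeneic plates. On the syngeneic plates it was 133 of 486 (27.4%) for assays on all 4 plates, 24 of 96 (25.0%) for assays not detected in PBMC, and 18 of 30 (60.0%) for assays on only 1 or 2 syngeneic plates. What makes a Ct fall on a whole cycle was not tested. The lower calls of miR-211, miR-425, miR-98, miR-23a, miR-342-5p, miR-467d, miR-330 and miR-200a all rest on such a PBMC well. So do the higher calls of miR-133a, miR-145, miR-143, miR-199a-3p, miR-126-3p, miR-132, miR-411 and miR-34b-3p, while those of miR-1, miR-127 and miR-126-5p do not. Among lower calls on all 4 plates, those of miR-150, miR-181a, miR-328 and miR-92a rest on such a well too, while miR-142-3p and miR-17 do not. With such wells left out, smooth muscle had 0 of 2 higher calls, endothelial 1 of 2, and cardiac and mesenchymal 2 of 3 each. Lower calls went from 9 to 3 for resting lymphocytes, 11 to 5 for miR-17-92 and paralogues, and 4 to 1 each for let-7 and miR-30. They stayed at 2 for the miR-142 arms and 4 for the miR-130 and miR-301 family. Of the 18 assays, 6 were detected on all 3 syngeneic heart plates.

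**Figure D5:**
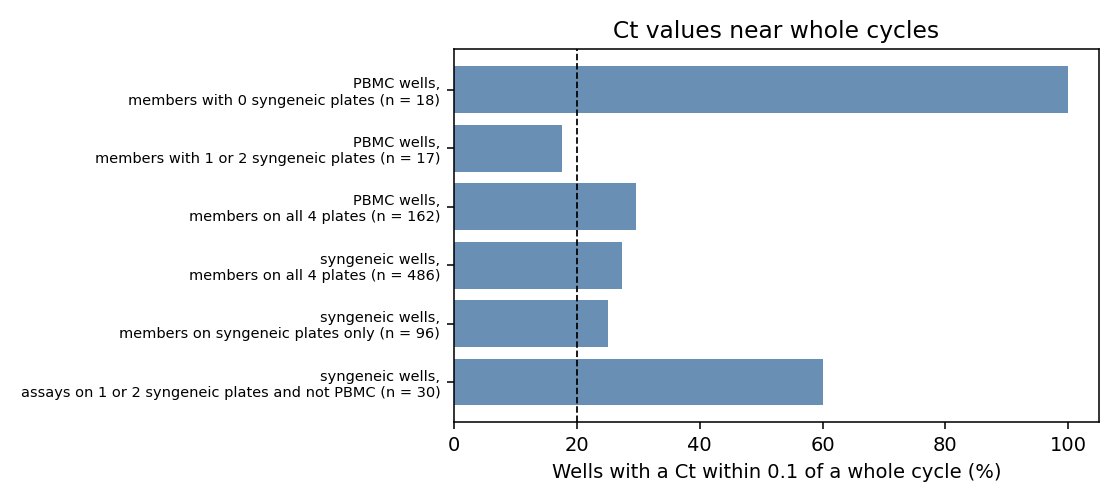
Share of wells with a Ct within 0.1 of a whole cycle (horizontal axis, percent) by class of assay, with the number of wells in each label. The dashed line is the 20% of an even spread, and the PBMC wells of the 18 assays on no syngeneic plate stand at 100%.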

How the data were processed

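Ct values were exported by the authors from TaqMan cards; per the file headers each table also holds delta Ct, an inverted log2 scale against snoRNA202, and a deposited relative quantity, a ratio with PBMC at 1. Undetermined wells and those at Ct 35 or later were set to 35. A level is the plate's mean Ct over 137 reference assays less the assay's Ct, so 1 cycle is 1 log2 unit. Group means of the 7 GIL and PBMC plates came from limma 3.58.1 under R 4.3.3 (lmFit, then eBayes, with 4 residual degrees of freedom). The test was two-sided, p-values were adjusted by Benjamini-Hochberg over the 229 tested, and 0.05 was the threshold for a call. The allogeneic GIL plates enter through the shared spread and through the choice of the 137 reference assays. With the reference assays of the 4 plates compared, the median difference moved by 0.05. There 135 assays were called, 67 higher and 68 lower. Where PBMC did not detect an assay, its difference is a lower bound ("at least"). Where no syngeneic plate did, it is an upper bound on the signed difference, so a value above 0, such as 1.95 for miR-302a, leaves the direction open. The syngeneic levels then differ only through each plate's limit (SD 0.54), which enters the SE. In both cases the SE holds no measured variation of the undetected side. Arrays give no counts, so their number limits the precision. The fit was tested on simulated data.

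The members, lists and alternatives were chosen with earlier results of these data known. Assays were named by a rule: the 12 largest called rises and falls on all 4 plates, 6 of each class detected on 1 side, tested marker list members, up to 4 of each other list, miR-182 and the controls. Others named (miR-204, miR-218, miR-455, miR-195, miR-330, the rat assays and further list or cluster members) were chosen after their values were seen. A list's summed level is the log2 of the sum of its assays' unlogged levels. Coordinates are from RefSeq on GRCm38.p6. Baseline and threshold settings are not given in the sources used here.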

Additional observations from a re-analysis of the deposited data

How the results depend on the processing

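Across 24 alternatives, no called assay was called in the opposite direction. The count of assays called was 139 (66 higher, 73 lower), and leaving out 1 pool at a time gave 128 to 156, with 65 to 68 higher, 61 to 88 lower, and on all 4 plates 33 to 36 higher and 53 to 72 lower. Scaling moved the median difference by -1.09 (MammU6), 0.47 (snoRNA202), 0.34 (both snoRNAs), 0.24 (median of the reference assays) and -0.33 (quantiles). On all 4 plates the higher calls numbered 22 scaled to MammU6. The lower calls numbered 31 in all and 21 on all 4 plates scaled to snoRNA202, 35 and 25 scaled to both snoRNAs, and 35 and 22 with the deposited delta Ct. Testing only the assays on all 4 plates left 36 higher calls, since the 32 seen only in syngeneic GIL were not tested. Leaving out wells within 0.1 of a whole cycle, an alternative chosen after the data were seen, left 158 tested and 77 called, 33 of them lower, with 14 higher and 29 lower on all 4 plates. Under quantile normalization miR-16 turned to 0.40, miR-182 to -0.19, miR-21 to 0.41, miR-24 to 0.52 and miR-30b to 0.28, none of them called. With a random replicate block (PBMC its own block) 143 assays were called, 67 higher and 76 lower, and each of the 139 calls remained. The estimated correlation between plates of the same number was 0.022, so the numbers were not taken as pairs. The cause of these shifts was not tested beyond the scalings' own construction. With 1 PBMC pool, spread between blood samples was not measured.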
